A study of Mus musculus with 12 samples.

Results

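The genes described here are 28 mouse genes of cholesterol and fatty acid synthesis, out of 21887 protein-coding genes on chromosomes 1 to 19, X and Y. They were taken from a list of names, as enzymes and regulators of both pathways. Each was looked up in 2 lists of called peaks of RNA-DNA hybrids, from mouse liver and from HEPA1-6, a line of mouse hepatoma cells. Peaks were assigned to a gene if they overlapped its body, extended by 1 kb at either end, by at least 1 bp. The members held 60 of the 28717 peaks of the HEPA1-6 list and 36 of the 14908 peaks of the liver list.

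Cholesterol is built from acetyl-CoA through mevalonate, isoprenoid diphosphates, squalene and lanosterol, while fatty acids are built from the same precursor through malonyl-CoA. In liver both routes are switched on by sterol regulatory element binding proteins (SREBPs), membrane-bound transcription factors that the escort protein SCAP carries to the Golgi and that INSIG proteins hold back in the endoplasmic reticulum when sterols are plentiful. R-loops, in which nascent RNA pairs with its DNA template and leaves the other strand unpaired, form mainly where genes are transcribed.

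The study bears on how R-loops influence genome editing with adeno-associated virus vectors. Per the labels, it made 12 libraries in 6 groups of 2: an immunoprecipitate with S9.6, an antibody against RNA-DNA hybrids, the same with RNase H1, an enzyme that digests the RNA of hybrids, and input DNA, each from HEPA1-6 cells and from liver of C57/Bl6 mice. Every group is labelled wild type, without treatment, with hepatocyte as the cell type. How many animals gave the liver DNA, and whether same-group libraries came from separate animals or cultures, is not given in the sources used here. The peaks were called on 1 merged immunoprecipitate per source, so the lists have no replicates, no difference between them has a replicate check, and the depth behind them is unknown. RNase H1 libraries were not analysed here. Each source holds many cells, so a strong signal in few cells and a weak one in many cannot be told apart.

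The label of the liver list was checked against marker genes. Of 10 hepatocyte markers, 3 held a HEPA1-6 peak (Alb, Hnf4a and Apob) and 2 a liver-list peak (Alb and Hnf4a), whereas all 8 markers of proliferating cells held a peak in each list. Over all protein-coding genes these shares were 42.0% and 29.7%, so the hepatocyte markers did not stand above other genes in either list. Of 18 markers of Kupffer, endothelial, stellate and bile duct cells, 3 held a peak, the same 3 in both lists (Csf1r, Dcn and Sox9). Peaks at every proliferation marker, without more at hepatocyte markers than at other genes, are not what a label of liver would lead to, so the list is called liver-labelled here. What part this had in the results below was not tested.

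Promoter sequences came from a RefSeq table (GRCm38.p6) that gives 250 bases before and 50 after a gene start, with the strand. It holds 32 windows for 23 of the 28 members. The 7 below were chosen to show gene starts with and without a peak, as the 250 bases before the start on the gene strand, 5′ to 3′. Hmgcs1 (chr13:119690101-119690350, plus strand), Insig1 (chr5:28071162-28071411, plus) and Mvd (chr8:122443423-122443672, minus) lay under a liver-labelled peak only. Srebf2 (chr15:82147019-82147268, plus), Sc5d (chr9:42264301-42264550, minus) and Fasn (chr11:120824548-120824797, minus) lay under a peak of both lists. Mvk (chr5:114444019-114444268, plus) had no peak in either list and is shown for comparison. Some windows lay under a peak only in part. Liver-labelled peaks covered 247 of the 300 bases at Insig1, 158 at Mvd and 211 at Srebf2, and peaks of each list 263 at Sc5d. Marked motifs can therefore lie outside the peak, as do both CCAAT matches of Mvd, at -60 and -27. Capitals mark 4 short motifs on either strand: CCAAT, the letters of NF-Y sites, GGGCGG, those of Sp1 sites, CACGTG, the E-box, and TCACNCCAC, which is like the sterol regulatory element.
Hmgcs1: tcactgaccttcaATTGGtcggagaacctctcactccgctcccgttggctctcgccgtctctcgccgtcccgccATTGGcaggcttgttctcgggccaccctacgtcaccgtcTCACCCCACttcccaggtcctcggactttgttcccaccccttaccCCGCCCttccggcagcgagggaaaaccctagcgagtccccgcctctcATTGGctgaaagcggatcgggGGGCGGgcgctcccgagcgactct
Insig1: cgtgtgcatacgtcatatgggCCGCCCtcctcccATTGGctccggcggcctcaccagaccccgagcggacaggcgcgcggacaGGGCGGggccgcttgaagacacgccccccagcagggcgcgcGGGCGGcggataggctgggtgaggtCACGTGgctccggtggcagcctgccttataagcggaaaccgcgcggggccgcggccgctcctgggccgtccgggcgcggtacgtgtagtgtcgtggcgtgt
Mvd: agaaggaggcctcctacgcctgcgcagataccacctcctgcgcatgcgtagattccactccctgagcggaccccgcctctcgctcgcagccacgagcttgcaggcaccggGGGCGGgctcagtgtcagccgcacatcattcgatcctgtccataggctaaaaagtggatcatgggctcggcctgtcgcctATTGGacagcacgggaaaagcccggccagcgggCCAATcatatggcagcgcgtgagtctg
Srebf2: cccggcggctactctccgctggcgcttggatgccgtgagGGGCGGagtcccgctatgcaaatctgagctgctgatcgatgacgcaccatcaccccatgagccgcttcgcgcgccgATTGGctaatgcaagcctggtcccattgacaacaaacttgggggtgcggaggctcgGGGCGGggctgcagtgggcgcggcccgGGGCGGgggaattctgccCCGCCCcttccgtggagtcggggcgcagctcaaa
Sc5d: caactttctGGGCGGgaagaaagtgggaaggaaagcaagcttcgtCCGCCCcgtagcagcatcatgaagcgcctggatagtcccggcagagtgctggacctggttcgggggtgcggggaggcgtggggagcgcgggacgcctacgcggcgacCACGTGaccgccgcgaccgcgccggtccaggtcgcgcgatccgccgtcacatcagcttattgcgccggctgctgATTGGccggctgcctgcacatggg
Fasn: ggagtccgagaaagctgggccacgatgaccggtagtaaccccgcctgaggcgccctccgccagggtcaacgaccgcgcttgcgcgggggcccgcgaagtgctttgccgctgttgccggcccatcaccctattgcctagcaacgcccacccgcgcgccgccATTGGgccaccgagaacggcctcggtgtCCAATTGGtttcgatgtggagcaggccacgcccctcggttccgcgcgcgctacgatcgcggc
Mvk: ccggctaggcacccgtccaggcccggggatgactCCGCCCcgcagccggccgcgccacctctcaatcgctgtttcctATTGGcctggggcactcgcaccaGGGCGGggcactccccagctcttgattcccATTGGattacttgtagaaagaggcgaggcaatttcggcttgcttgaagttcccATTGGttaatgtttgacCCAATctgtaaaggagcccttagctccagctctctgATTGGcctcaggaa

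At the level of genes, members held peaks more often than protein-coding genes in general. In HEPA1-6, 18 of 28 members (64.3%, 95% Wilson interval 45.8 to 79.3%) held a peak, beside 42.0% of all protein-coding genes. In the liver-labelled list 16 members did (57.1%, 39.1 to 73.5%), beside 29.7%. A peak in both lists was found at 14 members (50%, 32.6 to 67.4%), beside 27.8% of all genes. Only the HEPA1-6 list had one at Fdft1, Dhcr7, Me1 and Scd1, which is 14.3% of members beside 14.2% of all genes. At Insig1 and Mvd, 7.14% of members, the peak was liver-labelled only, beside 1.89% of all genes. No peak was called at 8 members (28.6%, beside 56.1%): Acat2, Mvk, Pmvk, Idi1, Lss, Msmo1, Hsd17b7 and Acacb. The intervals cover counting error over genes only. The HEPA1-6 list is the longer one, and cut to as many of its highest-scoring peaks as the liver-labelled list holds, it had a peak at 13 members, alone at 2, while the liver-labelled list was then alone at 5. With peaks that overlap no other gene, the liver-labelled count fell to 10 members. Shares of all genes were not computed for these shortened lists, so the shares above are no background for these counts.

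Gene length bears on such counts, because a longer gene offers more sequence to a peak. Members had a median length of 18560 bp, close to the 17169 bp of all protein-coding genes. Among the 6499 genes between the lower and upper quartile of member lengths, HEPA1-6 peaks lay at 49.8% and liver-labelled peaks at 33.6%. Of the 14 members in that range, 8 (57.1%) and 5 (35.7%) did, which is near the background for genes of that length. Both lists had a peak at 5 of the 14 (beside 32.2%), HEPA1-6 alone at 3 (beside 17.6%), the liver-labelled list alone at 0 (beside 1.38%), and neither at 6 (beside 48.8%). Members outside that range were not set beside genes of their own length. Of the shorter ones, Mvd, Fdps, Tm7sf2, Sc5d, Insig1 and Scd2 held a liver-labelled peak and Idi1 did not. Of the longer ones, Srebf2, Scap, Acly, Acaca and Elovl6 did, and Me1 and Acacb did not. Over all 28, members without a peak were 6791 to 104441 bp long, with a median of 17006 bp, and those with one in both lists had a median of 22156 bp. What part length had in the member counts was not tested.

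**Figure D1:**
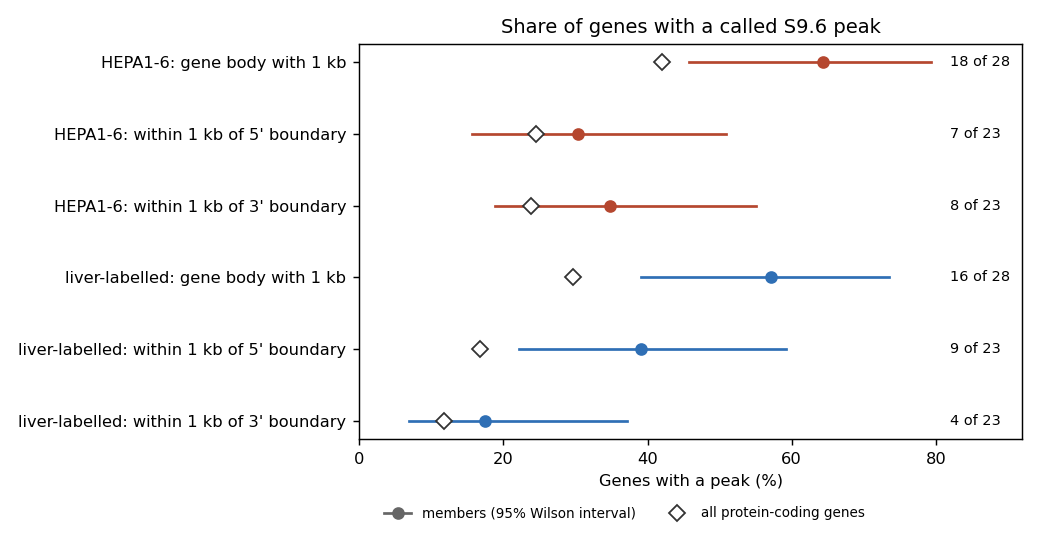
Share of genes with a called peak in percent (horizontal axis) for the gene body with 1 kb on both sides and for 1 kb windows at the 5′ and 3′ boundaries, in the HEPA1-6 list (red) and the liver-labelled list (blue). Filled points are members with 95% Wilson intervals, open diamonds all protein-coding genes, and the counts stand at the right; the widest gap is at the gene body in the liver-labelled list, 57.1% beside 29.7%.

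The members were then taken by their step in the pathways, to be read beside the 42.0% and 29.7% of all genes with a HEPA1-6 and a liver-labelled peak. Among the 7 genes from acetyl-CoA to farnesyl diphosphate, HEPA1-6 peaks lay at 2 and liver-labelled peaks at 3. For the 8 genes from squalene to cholesterol these counts were 5 and 3, for the 5 regulators 4 and 5, and for the 8 genes of fatty acid synthesis 7 and 5. The fatty acid genes were also the longest, with a median of 78045 bp, against 14474 bp for the mevalonate steps. These groups were drawn with the peaks known, and no test was made between them.

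**Figure D2:**
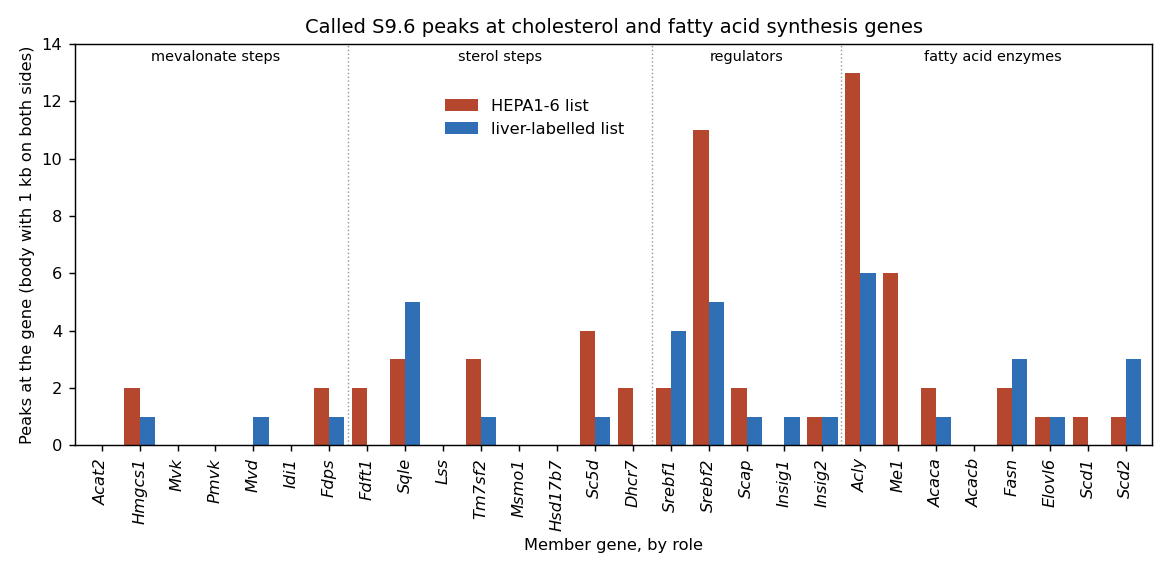
Number of called peaks (vertical axis) at each of the 28 members (horizontal axis), ordered by role, in the HEPA1-6 list (red) and the liver-labelled list (blue). Acly, with 13 and 6 peaks, and Srebf2, with 11 and 5, stand highest, and 8 members have no bar.

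Among the mevalonate genes, Hmgcs1, which makes HMG-CoA, held the highest-scoring peak of either list, and it lay at the start. The liver-labelled peak spanned chr13:119689966-119691410, from -385 to 1059 bp relative to the start, and scored 50. That is percentile 91.4 of its list, where 100 is the highest score. In HEPA1-6 only the last 306 bp of this interval were called (119691105 to 119691410, score 22, percentile 54.8), and a further peak of 665 bp (score 17) lay inside the gene. Both lists thus ended at the same base, but the promoter itself was under a liver-labelled peak only. Its sequence, printed above, holds TCACCCCAC from position -137, the only match to TCACNCCAC in the 32 member windows.

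Mvd, which decarboxylates mevalonate diphosphate, held a single liver-labelled peak of 247 bp (chr8:122443515-122443761, score 12). It was among the lowest-scoring of its list, at percentile 1.04, lay wholly before the start, from -339 to -93 bp, and overlapped the neighbouring 9330133O14Rik. Fdps, the farnesyl diphosphate synthase, held 1 peak shared by both lists at its lower boundary (chr3:89092808-89093831 in HEPA1-6, score 16, and 89092808-89093720, score 18), which also reached into Rusc1. A further HEPA1-6 peak lay inside the gene near its upper boundary (89100246 to 89101203, score 17). The other 4 mevalonate genes had none: the thiolase Acat2 (chr17:12943042-12960725), the kinases Mvk (chr5:114444264-114460591) and Pmvk (chr3:89454541-89469014), and the isomerase Idi1 (chr13:8885606-8892396). Pmvk came closest, with a HEPA1-6 peak 4.4 kb away over Pbxip1, while for Mvk the nearest lay 30.2 kb away.

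In the sterol steps, Sqle, the squalene epoxidase, was covered most. Peaks lay over 77.3% of its body in HEPA1-6 (3 peaks, scores 49, 43 and 42) and over 66.4% in the liver-labelled list (5 peaks, scores 16 to 47). The largest pair, chr15:59322195-59329765 and 59320708-59329765, ended at the same base. Sc5d, a sterol desaturase, held 4 HEPA1-6 peaks and 1 liver-labelled peak. At its start the HEPA1-6 peak spanned chr9:42260724-42264513 (score 35) and the liver-labelled one 42262343-42264513 (score 29), again with the same outer edge, at position -213 from the start. The highest Sc5d score in HEPA1-6, 46, belonged to an interval of 271 bp near the other end of the gene.

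Tm7sf2, a sterol reductase in a gene-dense stretch of chromosome 19, held 3 HEPA1-6 peaks. The highest (6056188 to 6062980, score 60) lay on the opposite strand and covered Mrpl49, Fau and Znhit2, and overlapped the 3′ end of Tm7sf2 by 160 bp. The promoter was under a HEPA1-6 peak (6066346 to 6068069, score 30) and under the single liver-labelled one (6066492 to 6068104, score 13, percentile 3.97), both of which also overlapped Vps51. Fdft1, the squalene synthase, held 2 HEPA1-6 peaks at its lower boundary (chr14:63143376-63144683, score 16, and 63145583-63146421, score 14), both over Ctsb as well, and its nearest liver-labelled peak was 383.0 kb away. Dhcr7, which makes cholesterol from its direct precursor, held 2 low HEPA1-6 peaks (chr7:143830746-143831430, score 17, and 143847507-143848225, score 15). The cyclase Lss (chr10:76531565-76557139), the oxygenase Msmo1 (chr8:64718123-64733578) and the reductase Hsd17b7 (chr1:169949535-169969242) held none.

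All 5 regulators held a liver-labelled peak, and all but Insig1 a HEPA1-6 peak. Srebf2, which encodes the SREBP most tied to cholesterol synthesis, held 11 HEPA1-6 peaks (scores 14 to 41) over 36.3% of its body and 5 liver-labelled peaks (scores 14 to 25) over 4.35%. Its start lay under chr15:82146161-82148600 in HEPA1-6 (score 27), while the liver-labelled peak there (82146338 to 82147229, score 15) ended before the start, at position -40. Every base of the 5 liver-labelled peaks was also under a HEPA1-6 peak. At the 3′ end, a HEPA1-6 peak of 11377 bp on the opposite strand ran from 82197841 to 82209217 (score 30) across Shisa8. Srebf2 also hosts miR-33, a microRNA known to act on cholesterol export, whose hairpin (82198122 to 82198190) lay under that HEPA1-6 peak and under no liver-labelled peak. Its mature 5′ arm is shown because the interval contains it, with the seed, bases 2 to 8, in capitals.
miR-33-5p: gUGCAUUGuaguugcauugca

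Srebf1 encodes SREBP-1, the form most tied to fatty acid synthesis, and held the joint highest liver-labelled score among the members. HEPA1-6 had an interval of 31273 bp (chr11:60184127-60215399, score 75) that covered the 3′ part of Srebf1 and the neighbouring Rai1, with the strand opposite to Srebf1. A second HEPA1-6 peak (60216805 to 60220487, score 61) had the strand of Srebf1. In the liver-labelled list the same stretch was divided into 4 peaks, 1 over Rai1 on the opposite strand (score 42) and 3 within Srebf1 on its own strand (scores 62, 37 and 39). Of the 3 promoter windows that RefSeq lists for Srebf1, the innermost (60210422 to 60210721) lay wholly under a peak of each list, and the other two under none.

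Scap, the escort protein, held 1 peak in each list at its 3′ end, over Ptpn23 too: chr9:110384574-110391237 in HEPA1-6 (score 60) and 110384574-110390399 in the liver-labelled list (score 35), on opposite strands. Its own body was under these peaks for a small part, 1.29% in HEPA1-6 with a further peak of score 12, and 0.728% in the liver-labelled list. The peak of Insig1 was liver-labelled only (chr5:28071215-28072395, score 19) and ran from -197 to 983 bp around its start, which also overlapped Gm35223. A HEPA1-6 peak (score 15) lay outside the 1 kb flank, at 1.3 kb. Insig2 held 1 peak per list over the start region of its inner RefSeq windows, chr1:121327853-121329104 in HEPA1-6 (score 19) and 121327349-121328929 in the liver-labelled list (score 21), and the latter had the opposite strand.

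The highest HEPA1-6 score of all members belonged to a gene of fatty acid synthesis. Fasn, the fatty acid synthase, was under peaks for 94.3% of its body in HEPA1-6 (chr11:120803867-120815839, score 67, and 120816934-120825508, score 109) and for 78.0% in the liver-labelled list (3 peaks, scores 34, 35 and 42). The score of 109 stood at percentile 97.9. Both lists ended at 120803867 on one side and at 120825508 on the other. Acly, which supplies cytosolic acetyl-CoA, carried 13 HEPA1-6 peaks (scores 12 to 32) and 6 liver-labelled ones (scores 15 to 27), all on its own strand. They covered 53.0% and 8.55% of the body, and 97.2% of the liver-labelled bases were under a HEPA1-6 peak. At its 5′ end the lists shared the edge at 100527018, which lies 982 bp inside the gene, so that the promoter window was under no peak.

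Elovl6, which elongates palmitate, is 106110 bp long and held its only peaks at the start: chr3:129532093-129535184 in HEPA1-6 (score 43) and 129532093-129532893 in the liver-labelled list (score 62, the joint highest there). The former had the strand of the gene and the latter the opposite one, and both overlapped Gm35986. The desaturase genes Scd1 and Scd2 are neighbours on chromosome 19 and close in sequence, and how reads that match both were handled is not given in the sources used here. A single HEPA1-6 peak (44291181 to 44308600, score 73) covered 100% of Scd2, where 3 liver-labelled peaks (scores 31, 17 and 44) covered 72.5%. Scd1, the main desaturase of adult liver, held only a HEPA1-6 peak of 1430 bp (44396317 to 44397746, score 22).

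Me1, the malic enzyme that supplies NADPH, held 6 HEPA1-6 peaks over 114552 bp (scores 14 to 35), among them 5 on its strand and 1 on the other (chr9:86692308-86692630, score 35). Its nearest liver-labelled peak was 831.0 kb away. Acaca, the cytosolic acetyl-CoA carboxylase and at 272017 bp the longest member, held 2 HEPA1-6 peaks near its 3′ end (chr11:84399116-84399838, score 12, and 84402034-84402489, score 16). Its liver-labelled peak (84178836 to 84179085, score 13) lay elsewhere, which made Acaca the only one of the 14 members with peaks in both lists where no base was shared. Acacb, the mitochondrial form (chr5:114146321-114250761), held no peak.

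**Figure D3:**
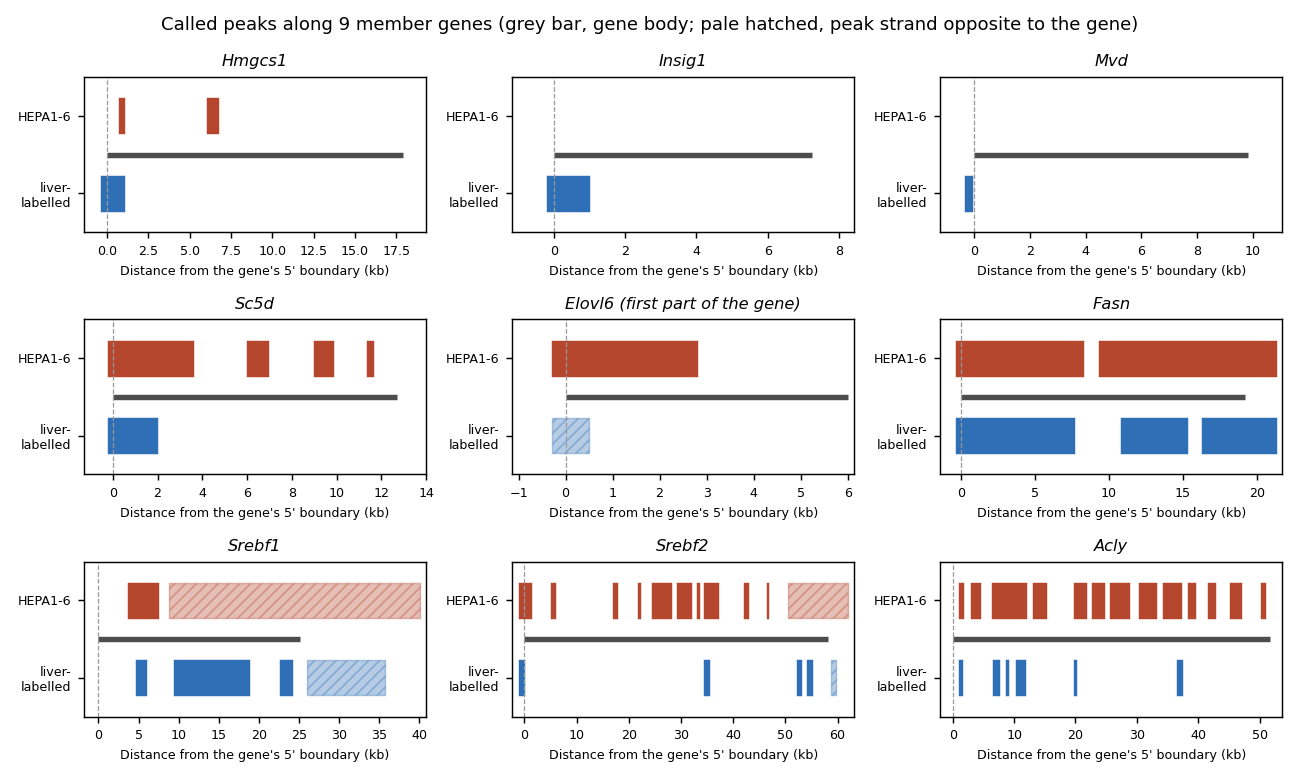
Called peaks along 9 members, drawn by distance from the gene's 5′ boundary in kb (horizontal axis), with HEPA1-6 peaks in red above the grey gene body and liver-labelled peaks in blue under it; pale hatched boxes have the strand opposite to the gene. Liver-labelled boxes cross the start of Hmgcs1 and Insig1 where no red box does, Fasn is filled in both lists, and Acly shows 13 red boxes against 6 blue ones.

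Taking the 23 members with a strand, the 5′ and 3′ boundaries were compared. Within 1 kb of the 5′ boundary, 7 held a HEPA1-6 peak (30.4%, 15.6 to 50.9%), beside 24.5% of 17492 protein-coding genes with a strand. Liver-labelled peaks lay there at 9 (39.1%, 22.2 to 59.2%), beside 16.7%, but only 4 remained in the higher-scoring 50% of that list. The share of all genes under this cut was not computed, and 16.7% holds for the whole list only. All 7 members with a HEPA1-6 peak there were among the 9: Acly, Elovl6, Fasn, Hmgcs1, Sc5d, Srebf2 and Tm7sf2. At the 3′ boundary the counts were 8 (34.8%, 18.8 to 55.1%, beside 23.8%) and 4 (17.4%, 6.98 to 37.1%, beside 11.8%). All these intervals cover counting error over genes only. They are no test against the background, since the members were chosen with earlier results of these data known.

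With the RefSeq promoter windows in place of the outer boundary, 7 members were under a HEPA1-6 peak (30.4%, beside 20.4% of genes) and 10 under a liver-labelled peak (43.5%, beside 13.5%). The 7 were again all among the 10. A gene counts here if any of its windows does, and members had 32 windows for 23 genes, against 21263 for 17492. Across all genes the order was the other way: 8.28% had a window under a HEPA1-6 peak only and 1.33% under a liver-labelled peak only, against 0 and 3 of the 23 members. The 3 were Hmgcs1, Insig1 and Mvd. Among the higher-scoring 50% of liver-labelled peaks, Hmgcs1 was the only one of them left, and the count of 10 fell to 5, with Insig1, Insig2, Mvd, Srebf2 and Tm7sf2 lost. Shares of all genes under this cut were not computed, so these counts have no background.

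The letters at peak edges were read where an edge fell at least 20 bases inside a promoter window. An edge inside several overlapping windows was counted for each of them. Of 746 such HEPA1-6 edges, 54.7% lay on the letters cut by HindIII (AAGCTT), EcoRI (GAATTC), BsrGI (TGTACA), XbaI (TCTAGA) or SspI (AATATT), the 5 restriction enzymes commonly used to cut DNA for this type of immunoprecipitation. Of 739 liver-labelled edges 40.5% did, whereas these letters take up 0.609% of all window positions. Each motif is its own reverse complement and stands in 4.18 to 6.69% of all windows. At Sc5d the edge common to both lists falls on AAGCTT (position -214 in the sequence above, in lower case), and at Srebf2 the liver-labelled edge falls on GAATTC from position -44. No such site lay at the window edges of Insig1, Insig2, Mvd or Tm7sf2. What part cutting of the DNA had in the extent of the peaks was not tested.

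Peaks were shared between the lists at rates near those of other genes. Of the 60 HEPA1-6 member peaks, 23 (38.3%) overlapped a liver-labelled peak, beside 31.8% of HEPA1-6 peaks at protein-coding genes. Of the 36 liver-labelled member peaks, 32 (88.9%) overlapped a HEPA1-6 peak, beside 88.9%. These counts are for an overlap of at least 1 bp, and where 50% of both peaks had to overlap they fell to 10 and 9. The 4 liver-labelled member peaks that overlapped no HEPA1-6 peak at all lay at Insig1, Mvd, Acaca and the lower boundary of Sqle. Of the overlapping peaks, 12 HEPA1-6 (52.2%, beside 55.8%) and 12 liver-labelled ones (37.5%, beside 46.2%) had an edge at the same base as the peak of the other list.

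The strand given to a peak was that of the member in 46 of 51 HEPA1-6 cases (90.2%, beside 87.3% of gene-peak pairs) and in 23 of 27 liver-labelled cases (85.2%, beside 83.8%). Of the 5 HEPA1-6 peaks on the opposite strand 4 overlapped another gene, and of the 4 liver-labelled ones 3 did. The exceptions were the Me1 peak and the liver-labelled peak of Insig2. All member peaks carried a strand.

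The score, whose scale is not stated, was read only as a rank within its list. The 60 HEPA1-6 member peaks scored from 12 to 109, with a median of 23, and the 36 liver-labelled ones from 12 to 62, with a median of 22. These correspond to percentiles of 57.7 and 51.6, beside medians of 51.6 and 51.7 for all peaks at protein-coding genes. The median width was 1280 bp in HEPA1-6 (242 to 31273 bp), beside 1137 bp for peaks at protein-coding genes, and for liver-labelled member peaks it was 1217 bp (247 to 10162 bp), beside 958 bp. Ranks of member peaks were thus near those of other genes, while their median widths were above those of other genes in both lists. By score, Fasn, Srebf1 and Scd2 stood at the upper end in HEPA1-6 and Srebf1, Elovl6 and Hmgcs1 in the liver-labelled list. Where peaks reached the gene body, HEPA1-6 peaks covered a median of 12.55% of it in 18 members, beside 17.0% in protein-coding genes. For liver-labelled peaks the median was 8.55% in 15 members, beside 6.91%.

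**Figure D4:**
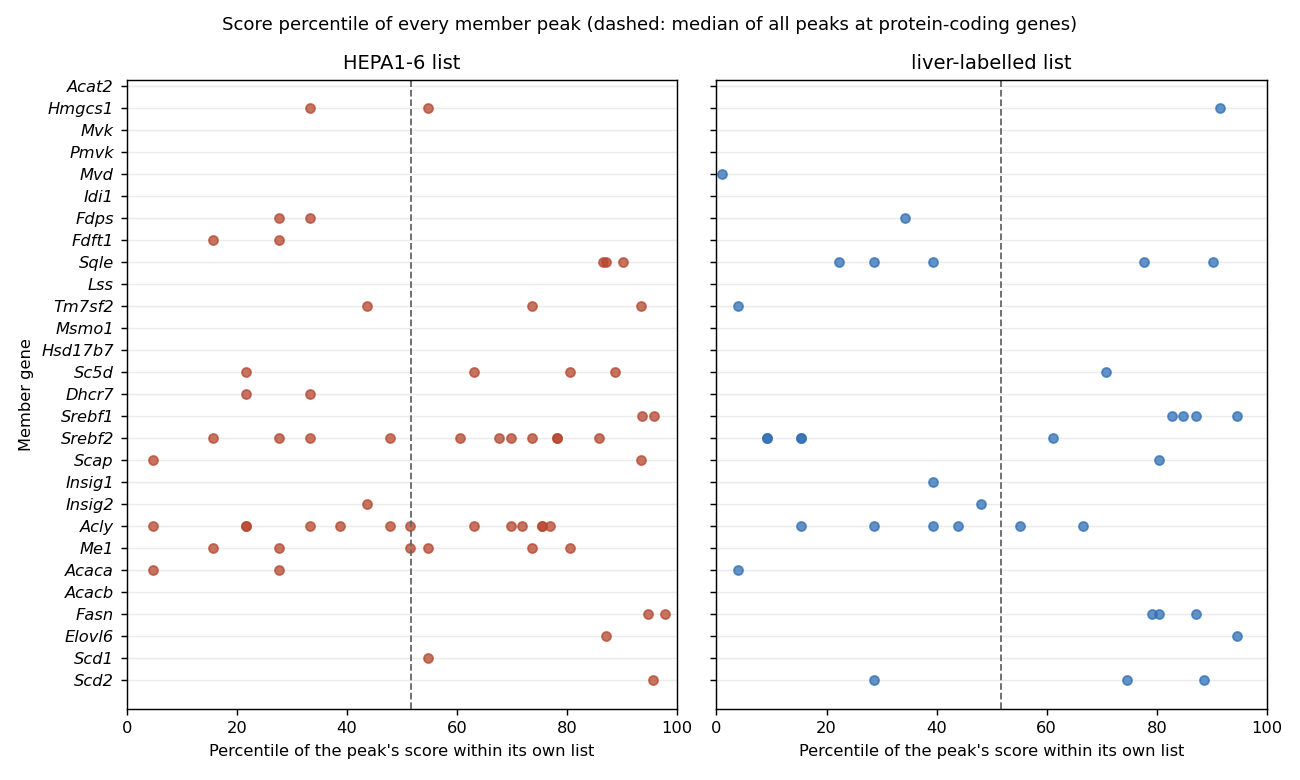
Percentile of the score of each member peak within its own list (horizontal axis, 100 is the highest), by member (vertical axis), for HEPA1-6 on the left and the liver-labelled list on the right; each point is a peak and the dashed line is the median of peaks at protein-coding genes. Fasn reaches 97.9 in HEPA1-6, and the Hmgcs1 peak is at 91.4 on the right but at 54.8 on the left.

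Promoter windows of members were rich in GC, and in the motifs CCAAT and GGGCGG, whether or not they held a peak. Their median GC content was 61.8%, against 56.3% for 21263 windows of protein-coding genes. It was 68.5% in the 8 member windows under a peak of both lists, and 58.7% in the 21 under none. For all genes these medians were 64.0% and 54.3%. A positive GC skew, (G - C) / (G + C) on the gene strand, is known to favour R-loops in transcribed sequence. Here 250 of the 300 bases of each window lie before the start, so the values describe mainly sequence before it. The skew had a median of 0.059 in the 8 windows and -0.059 in the 21. The skew was positive in 5 of 8 and in 6 of 21, beside 54.3% and 53.6% of such windows of all genes. Across all genes the medians were 0.019 and 0.016. Of the 11 windows under a liver-labelled peak, 6 had a positive skew, beside 54.7% of such windows of all genes. The 6 were those of Srebf2 (0.136), Srebf1 (0.123), Sc5d (0.112), Insig1 (0.033) and 2 of Insig2 (0.202 and 0.006). A negative skew was found in those of Hmgcs1 (-0.228), Elovl6 (-0.114), Fasn (-0.077), Tm7sf2 (-0.072) and Mvd (-0.048). Several of these windows belong to 1 gene, and no test was made.

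**Figure D5:**
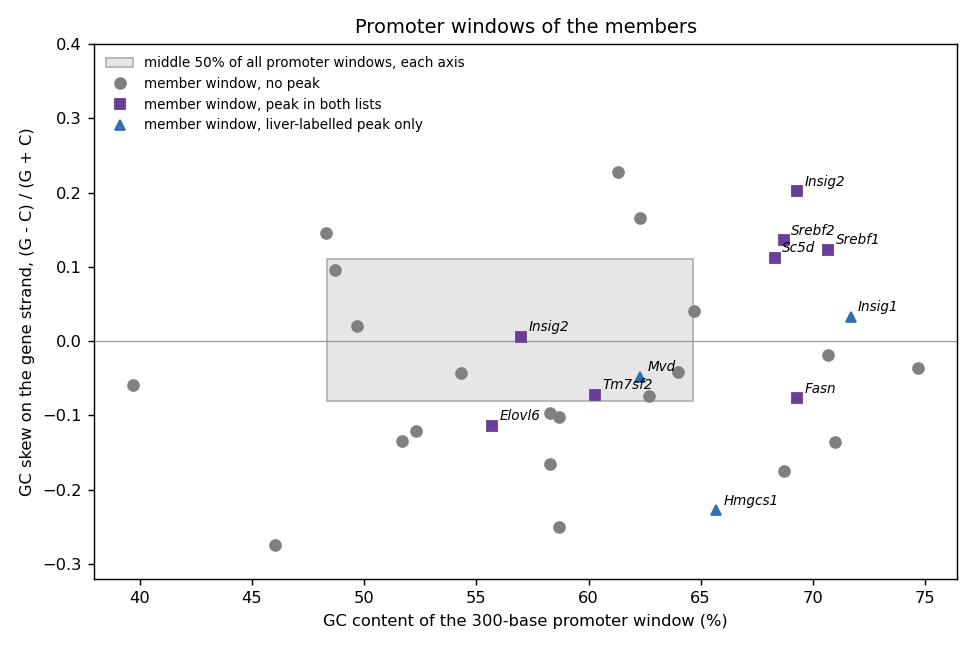
GC content (horizontal axis, %) and GC skew (vertical axis) of the 32 promoter windows of 23 members; squares lie under a peak of both lists, triangles under a liver-labelled peak only and grey circles under none, and the box spans the middle 50% of all windows on each axis. Of the 8 squares, 5 lie above 0, beside 54.3% of windows of all genes under a peak of both lists, and Hmgcs1 is the lowest triangle.

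For the motifs, CCAAT was found on either strand in at least 1 window of 19 of 23 members (82.6%), beside 42.3% of genes. GGGCGG was found in 18 (78.3%, beside 49.2%), CACGTG in 5 (21.7%, beside 8.91%) and TCACNCCAC in 1 (4.35%, beside 1.41%). Such counts rise with the number of windows per gene. Counted by window, CCAAT was in 62.5% (beside 38.2%) and GGGCGG in 68.8% (beside 46.2%). By window CACGTG was in 18.8% (beside 7.84%) and TCACNCCAC in 3.12% (beside 1.19%). In the Fasn sequence above, 2 CCAAT matches on opposite strands overlap. Mvk, without a peak, held 5 CCAAT matches in its window, more than any other member window. Of the 21 member windows under no peak, 57.1% held CCAAT and 61.9% GGGCGG, against 72.7% and 81.8% of the 11 under a liver-labelled peak. For windows of all protein-coding genes these shares were 38.5% and 39.7% under no peak, against 41.6% and 72.3% under a liver-labelled peak. The higher share of GGGCGG under peaks was thus not particular to members. No test was made of these differences, and a match is not a bound site.

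A companion list of 26 other genes of the same pathways was read the same way. HEPA1-6 peaks lay at 21 of them and liver-labelled peaks at 13, beside 42.0% and 29.7% of all protein-coding genes, and all 13 were among the 21. Among the 13 were Cyp51, Mbtps1 and Mbtps2, the proteases that release SREBPs, Nr1h2, Dgat1, Slc25a1, Stard4, Fads1, Fads2, Gpam and Mid1ip1. Dgat1, which completes triglyceride synthesis, held 2 peaks in each list (highest scores 87 for HEPA1-6 and 61 for liver-labelled peaks). Gpam, which starts glycerolipid synthesis, held 11 HEPA1-6 and 13 liver-labelled peaks, the largest number in the liver-labelled list among these and the members. HEPA1-6 peaks alone were found at genes that include Ggps1, Acss2, Elovl5, Nr1h3, Erlin1, Erlin2 and Usp20. Neither list had a peak at Nsdhl, Ebp, Dgat2 or at Mlxipl and Thrsp, both tied to carbohydrate-driven lipid synthesis. A gene without a called peak may hold signal under the authors' threshold at this unknown depth.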

How the data were processed

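Per the labels' protocols, genomic DNA was immunoprecipitated with S9.6, sonicated to about 300 bp, amplified with 10 PCR cycles (4 for inputs) and sequenced as paired reads of 75 bp. The submitters' processing notes name CASAVA 1.8.2, cutadapt, Bowtie2, bedtools, SAMtools, MACS2 and the build mm10, without their roles. How peaks got their strand, and the calling threshold, are not given in the sources used here. Each deposited list gives the position, strand and score of every peak, and the authors' score is a whole number of 10 or more on an unstated scale.

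Peaks were laid over RefSeq genes and promoter windows (both GRCm38.p6, the same build) in Python 3.11.15 with pandas 2.3.3 and scipy 1.17.1, with coordinates printed 1-based. Strands of genes came from the promoter table, which holds 23 of 28 members. Sqle, Fdft1, Fdps, Scd1 and Scd2 have no strand there and stayed out of comparisons of strand and boundaries. Overlap and interval code was tested on simulated data. Counts were described beside all protein-coding genes, with no test, since each source has 1 list. All members are named, and the companion genes except some that are not reported here; coordinates are given for members with a 5′ peak in both lists, the 5 highest-scoring of each list, those with a peak in 1 list only and those without a peak, and others where described. The members and lists were chosen with earlier results of these data known.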

Additional observations from a re-analysis of the deposited data

How the results depend on the processing

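Of 59 alternatives for 19 results, 42 stayed within 1.5 times a count, or within the 95% interval of a share or median, and 17 moved. Restricting genes to the members' middle lengths moved the background shares, to 49.8% for HEPA1-6 and 33.6% for liver-labelled peaks. Without the flank, members with a liver-labelled peak only numbered 1 (Mvd lost), and with a flank of 5 kb also 1 (Insig1 then held a HEPA1-6 peak). In the higher-scoring 50% of each list, liver-labelled peaks remained at 10 members, at 0 of them in that list only, at 4 for the 5′ boundary and at 5 for the promoter windows. With as many HEPA1-6 peaks as the liver-labelled list holds, 2 members had a HEPA1-6 peak only and 5 a liver-labelled peak only, so the one-list counts turn on the length of the lists. Peaks on the strand of the gene left 9 members with a peak in both lists, against 11 of the 23 that have a strand. Peaks over no other gene left 10 members with a liver-labelled peak, 9 with both and 1 with a liver-labelled peak only. An overlap of 50% of both peaks left 10 HEPA1-6 and 9 liver-labelled member peaks shared. Shares over all genes were not computed for settings that change the lists, the flank or the overlap, so those member counts have no background. The highest-scoring peak of each member had a median percentile of 83.2 in HEPA1-6, by construction above that of all peaks. The alternatives for promoter windows, for the score or list length at the 5′ boundary, and for peaks over other genes in the strand counts were chosen after seeing the data. No paired analysis was possible because each source has 1 pooled list, and leaving out a replicate could not be run for the same reason. The unknown depth limits every statement that a peak is missing.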
